A study of Macaca mulatta with 6 samples.

Results

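ISG15, HERC6, MX1, MX2, CMPK2, SAMD9L, IFI44 and PLSCR1 are 8 genes that interferon induces and that act against viruses inside the cell. They were chosen by their measured differences between T0901317 and DMSO in these arrays and by their role, so those differences are a description here and carry no test. The 8 genes have 13 probe sets, of 14132 named genes and 52766 probe sets tested. The cells were dispersed from the corpora lutea of rhesus macaques (Macaca mulatta), the progesterone-secreting gland of the ovary, 12 days after the surge of luteinizing hormone (LH). They were cultured without serum on fibronectin for 24 h with 0.1% DMSO, the vehicle, or with 1 µM T0901317. This compound is a synthetic activator of LXRs (liver X receptors), the nuclear receptors for oxidised cholesterol. Each group has 3 biological replicates, which the series describes as paired. Neither the number of animals nor their age is stated in the sources used here. With the number of animals unknown, p-values rest only on the spread of the differences within these pairs of cultures. That spread is combined with a trend over all probe sets. The question named by the series title is which genes LXR targets in luteal cells.

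Interferons bind receptors that switch on the kinases JAK1 and TYK2, and these activate transcription factors, STAT2 and IRF9 among them, that turn on many interferon-stimulated genes. ISG15 is a ubiquitin-like protein that is attached to other proteins by the enzymes UBA7, UBE2L6 and HERC5 and removed by USP18. HERC6 is a ligase of the same family as HERC5. MX1 and MX2 are dynamin-like GTPases that block incoming viruses, CMPK2 is a nucleotide kinase of mitochondria, SAMD9L restricts viral protein synthesis, and PLSCR1 is a membrane-associated phospholipid scramblase. In ruminants, interferon-stimulated genes of the corpus luteum are known to rise in early pregnancy in response to interferon from the conceptus.

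The values are log2 levels, so a difference of 1 is a 2-fold change of the signal. They come from different probes for each gene, so levels are compared between arrays and not between genes. The reference for dim signal was 4.63, the 95th percentile of 42 Bacillus control probe sets, and 12 of the 13 probe sets lay above it. ISG15, HERC6, MX1 and CMPK2, 4 of the genes, are each read by a single probe set, 3 genes by 2 (MX2, IFI44, PLSCR1) and SAMD9L by 3. Where a gene had several, the brightest by its mean level represents it, and is called the representative below. Array medians ran from 5.54 to 5.71. Of 11 listed luteal steroidogenic markers 8 were measured, with a median level of 6.77 against 6.84 over all named genes, and 0 were dim. STAR, which carries cholesterol into mitochondria, stood at 10.5 to 11.5 over the arrays and HSD3B2, which makes progesterone, at 5.86 to 7.41. CYP11A1 and LHCGR were not analysed here. The treatment check was MYLIP, a ubiquitin ligase and LXR target, whose level was 7.50, 8.01 and 8.03 with DMSO and 9.99, 10.1 and 10.7 with T0901317 in replicates 1, 2 and 3.

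ISG15 was the most even of the 8 genes across pairs. Its level was 11.9, 8.85 and 12.3 with DMSO in replicates 1, 2 and 3, and 11.1, 8.19 and 11.6 with T0901317. Every treated array lay below its own vehicle array, but the groups overlapped widely, because replicate 2 was far below the others in both. The paired differences were -0.75, -0.66 and -0.72, with a mean of -0.71 ± 0.044 (SD, n = 3 pairs; limma's SE 0.071), which leaves 61.3% of the vehicle signal. Limma's SE, here and below, combines the probe set's own spread with a trend of spread on level fitted over all probe sets.

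HERC6 followed the same pattern over the 6 arrays. Its level was 10.3, 7.45 and 11.0 with DMSO and 9.84, 7.03 and 10.5 with T0901317. The differences were -0.47, -0.42 and -0.60, with a mean of -0.49 ± 0.092 (SD, n = 3 pairs), or 71.0% of the vehicle signal.

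The 2 GTPases lie next to each other in the rhesus macaque genome (RefSeq assembly T2T-MMU8v2.0) and had similar values. MX1 stood at 11.2, 9.77 and 11.6 with DMSO and at 10.6, 9.28 and 11.2 with T0901317, a mean difference of -0.50 ± 0.092 (SD, n = 3 pairs). MX2 stood at 10.5, 8.03 and 10.6 with DMSO and at 9.97, 7.60 and 10.3 with T0901317 on its representative, a mean difference of -0.45 ± 0.12 (SD, n = 3 pairs). Its other probe set had differences of -0.61, -0.42 and -0.88. The outer neighbours of the pair, TMPRSS2 (-0.03 ± 0.12, limma's SE) and FAM3B (0.09 ± 0.10), did not pass limma's test. MX2 did not pass it either, with an adjusted p of 0.15 on its representative and 0.057 on its other probe set.

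CMPK2 had the largest mean difference in size of the 8 genes, -0.76, and a wide spread between pairs; without replicate 3 it was -0.58, against -0.70 for ISG15. Its level was 10.9, 7.27 and 10.1 with DMSO and 10.2, 6.84 and 9.04 with T0901317. The differences were -0.74, -0.43 and -1.11, with an SD of 0.34 (n = 3 pairs), and the mean corresponds to 59.1% of the vehicle signal. Every treated array lay below its own vehicle array, and as for HERC6, MX1 and MX2 the groups overlapped. Unlike in those genes, the DMSO level in replicate 3 was below that in replicate 1, with a difference of -0.77.

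SAMD9L was the member whose vehicle arrays differed least. Its representative stood at 10.0, 9.79 and 10.7 with DMSO and at 9.47, 9.48 and 10.0 with T0901317, a mean difference of -0.51 ± 0.17 (SD, n = 3 pairs). A second, much dimmer probe set had 5.48, 5.62 and 5.05 with DMSO against 4.88, 4.85 and 4.83 with T0901317. It was the only 1 of the 13 probe sets whose groups did not overlap, against 2.45% of all probe sets. The third probe set was dim, at a mean of 4.13 with DMSO and 4.04 with T0901317, and its differences were 0.16, -0.21 and -0.22.

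IFI44, an interferon-induced protein of the cytoplasm, stood at 11.5, 10.1 and 11.7 with DMSO and at 10.9, 9.70 and 11.4 with T0901317 on its representative. The mean difference was -0.42 ± 0.10 (SD, n = 3 pairs). Its other probe set, whose probes may hit more than 1 transcript, had -0.20, 0.03 and -1.02, so that pair 3 gave most of its mean of -0.40. The gene number that the array annotation gives IFI44 is not in the current RefSeq gene table, where IFI44 has another number and lies beside its relative IFI44L. The identity of these 2 probe sets therefore rests on the array annotation alone.

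PLSCR1 had another direction and another order of replicates than the other 7 genes. Its level was 9.75, 9.11 and 7.41 with DMSO and 9.52, 9.63 and 8.27 with T0901317. It was low in replicate 3, where ISG15, HERC6, MX1, MX2, SAMD9L and IFI44 had their highest vehicle level. The differences were -0.23, 0.52 and 0.86, with a mean of 0.38 ± 0.56 (SD, n = 3 pairs), and the second probe set gave -0.16, 0.78 and 0.34. Replicate 1 had the opposite sign to the others on both probe sets, and over the alternatives tried the mean ran from 0.15 without replicate 3 to 0.69 without replicate 1.

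**Figure D1:**
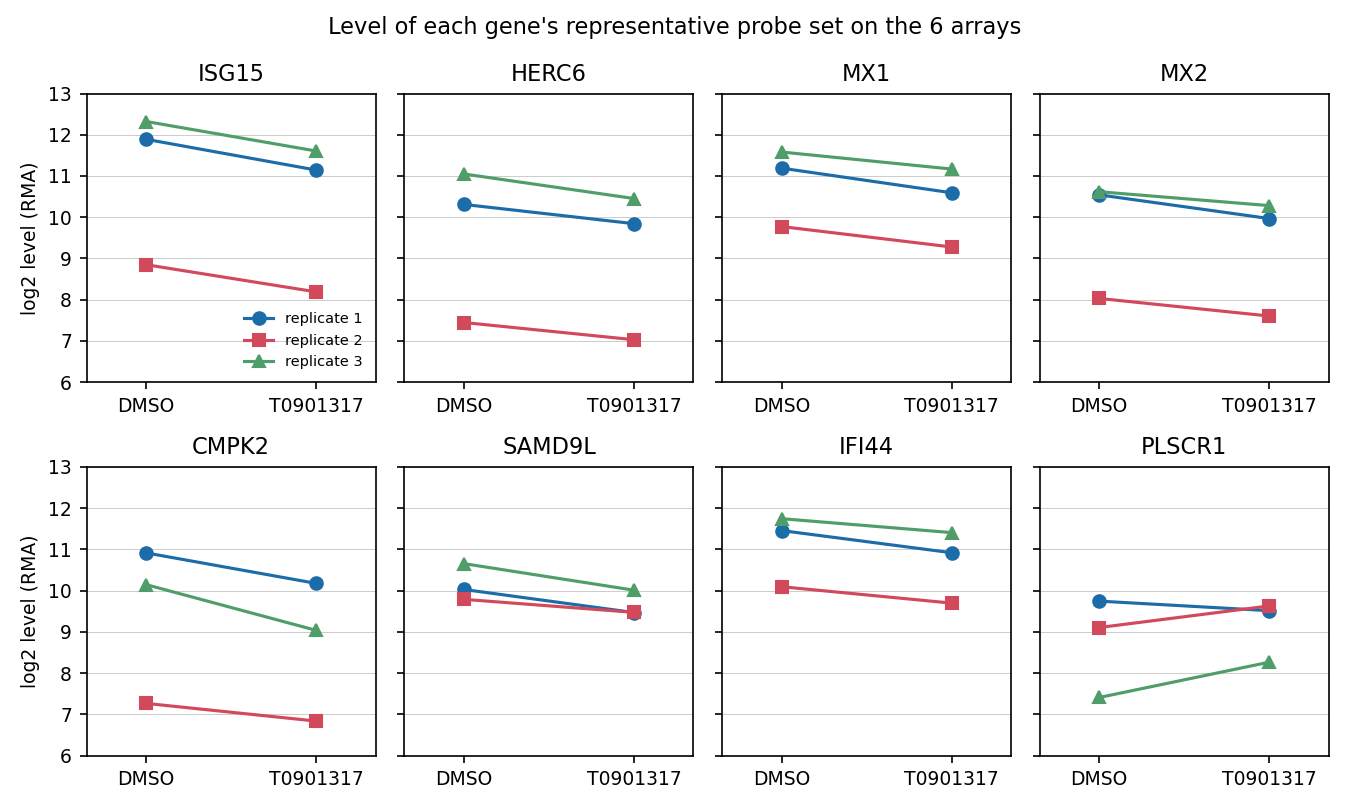
Log2 level (vertical axis) of the representative probe set of each of the 8 genes with DMSO and with T0901317 (horizontal axis); each line joins the 2 arrays of a replicate, 1 array per point and no error bars. For ISG15, HERC6, MX1, MX2, CMPK2 and IFI44 replicate 2 lies far below the others, and every line except those of PLSCR1 in replicates 2 and 3 falls to the right.

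Of the 8 genes, 7 were lower with T0901317 in 3 of 3 pairs on their representative probe sets, against 15.8% of all named genes. By probe set it was 9 of 13, against 11.1% of all probe sets. Past an adjusted p of 0.05 in limma's fit over all probe sets were 3 of the 8 genes, ISG15, MX1 and CMPK2, all lower, and none was higher. That threshold was passed downward by 0.0637% of named genes and upward by 0.113%, and by probe set by 0.0246% and 0.0606%. At an unadjusted p under 0.05, 10 of the 13 member probe sets were lower and 2, both of PLSCR1, were higher, against 1.67% and 2.05% of all probe sets. Because the same differences chose the genes, nothing is read from these shares. The count of 3 member probe sets was 0 without the replicate block and 0 without the variance trend in limma's fit (1 and 9 at an unadjusted p under 0.05), and 1 with quantile normalization and with cyclic loess. It was 1 without replicate 1, 4 without replicate 2 and 9 without replicate 3. The median difference of the 8 genes was -0.50, against -0.02 over all named genes.

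**Figure D2:**
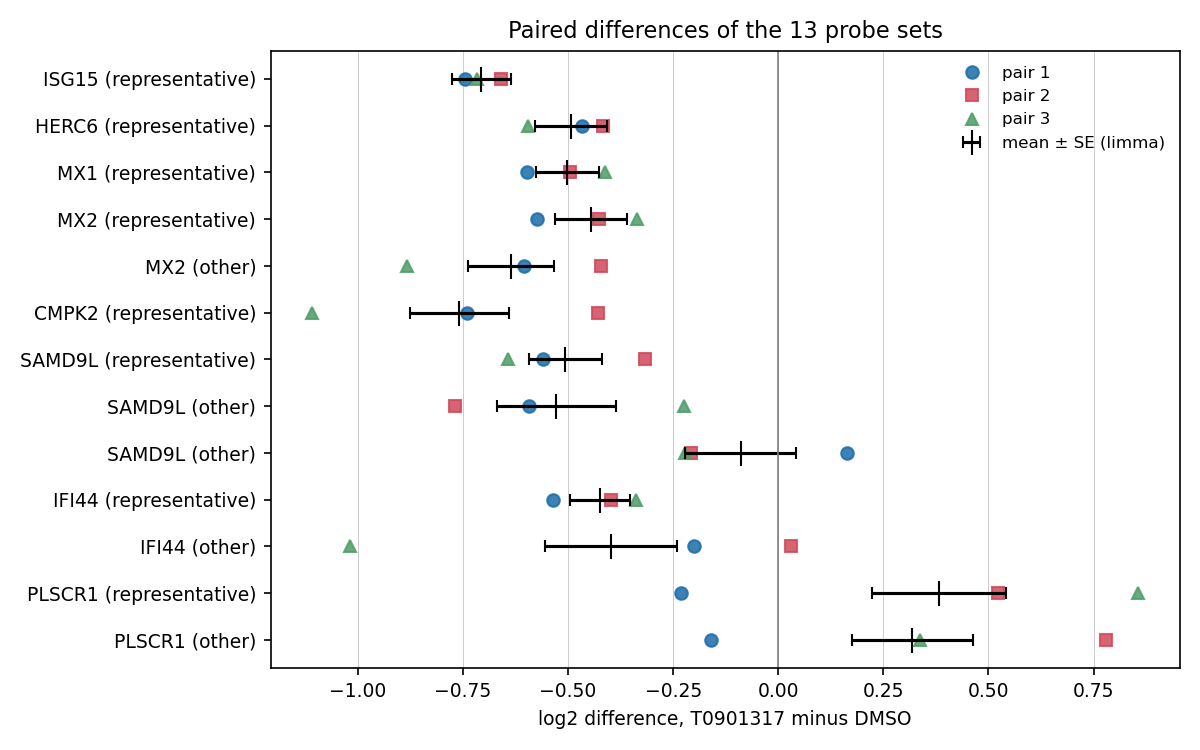
Log2 differences, T0901317 minus DMSO (horizontal axis), of the 13 probe sets of the 8 genes (vertical axis, representative first). Coloured symbols are the 3 pairs and black bars the mean with its SE from limma; ISG15 has the tightest pairs, -0.75 to -0.66, and the PLSCR1 probe sets lie on both sides of 0.

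The probe sets of a gene disagreed most in pair 3 for MX2, IFI44 and PLSCR1, but not for SAMD9L. The representative and the other probe set of MX2 differed by 0.031 and 0.0060 in pairs 1 and 2 but by 0.55 in pair 3. For IFI44 the gaps were 0.34, 0.43 and 0.68, and for PLSCR1 0.071, 0.26 and 0.52. From the representative of SAMD9L to the brighter of its other probe sets the gaps were 0.033, 0.45 and 0.42, largest in pair 2. To its dimmest probe set they were 0.72, 0.11 and 0.42, largest in pair 1. In pair 3 the difference between 3' and 5' control probe sets, a measure of RNA integrity averaged over actin, GAPDH and EF1a, moved most. It was 1.89 with DMSO and 1.30 with T0901317 in replicate 3, and between 0.69 and 1.00 on the other 4 arrays. With that measure as a covariate beside the replicate block, ISG15 had -0.71, MX1 -0.54, MX2 -0.50, IFI44 -0.46, CMPK2 -0.66 and PLSCR1 0.16. The part of RNA integrity in the disagreement was not tested further.

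The spread between vehicle cultures exceeded the difference with treatment for 7 of the 8 genes. The SD over the 3 DMSO arrays was 1.89 for ISG15, 1.90 for HERC6, 1.92 for CMPK2 and 1.47 for MX2. For these genes it was 2.53 to 3.86 times the size of the mean difference. It was 0.95 for MX1, 0.88 for IFI44 and 1.21 for PLSCR1, and 0.45 for SAMD9L, the exception, where the mean difference was 0.51 in size. The median SD over all probe sets was 0.24 and its 95th percentile 0.73, so the SDs of the representatives other than that of SAMD9L were among the widest on the arrays.

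For ISG15, HERC6, MX1, MX2, CMPK2 and IFI44 the low replicate was replicate 2, and for PLSCR1 it was replicate 3. With DMSO, ISG15 was 3.04 lower in replicate 2 than in replicate 1 and 3.47 lower than in replicate 3. With T0901317 the same gaps were 2.95 and 3.42. For HERC6 they were 2.86 and 3.60 with DMSO, and 2.81 and 3.42 with T0901317. Replicate 2 thus kept its low place under treatment, and its own paired difference was of similar size for ISG15, HERC6 and MX1. Replicate 2 was the lowest replicate in both groups for 6 of the 8 genes, against 18.2% of all named genes. There is 1 array per replicate and group, so the gap between replicates has no test.

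**Figure D3:**
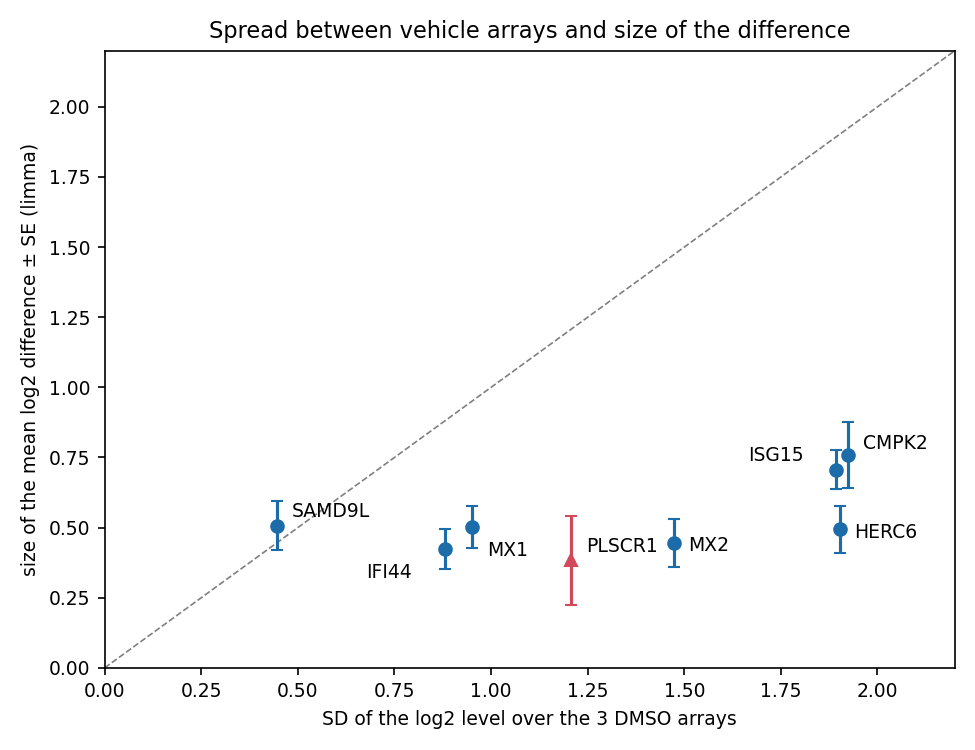
Size of the mean log2 difference with its SE from limma (vertical axis) against the SD of the log2 level over the 3 DMSO arrays (horizontal axis) for the 8 genes. Circles are genes with a mean below 0 and the triangle is PLSCR1; the dashed line marks equal values, and all genes but SAMD9L lie below it.

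The enzymes that activate and carry ISG15 had no low level in replicate 2. UBA7, the activating enzyme, stood at 10.9, 11.2 and 10.8 with DMSO and had a difference of -0.16 ± 0.078 (limma's SE; adjusted p = 1.00). UBE2L6, the conjugating enzyme, stood at 10.5, 10.7 and 10.9 and had -0.28 ± 0.084 (adjusted p = 0.99). TRIM25, a ligase that can also attach ISG15, was lowest in replicate 2, at 9.70, 9.22 and 9.79 with DMSO, by far less than ISG15, and had -0.19 ± 0.090 (adjusted p = 1.00). Of 7 listed genes 4 were measured, and 0 were lower and 0 higher past the threshold in limma (1 and 0 at an unadjusted p under 0.05). Over all named genes, 2.41% were lower and 1.32% higher at that unadjusted p. The median of the 4 genes was -0.18, and -0.10 with the mean of each gene's probe sets. HERC5 and USP18 were not analysed here.

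Of the pathway groups, the IFIT and OAS genes were nearest to the 8 in median difference and in the share lowest in replicate 2. Of 7 measured IFIT and OAS genes, 6 were lower and 0 higher at an unadjusted p under 0.05. Over all named genes these shares were 2.41% and 1.32%. Past the adjusted threshold was 1 of the 7, against 0.0637% of all named genes lower. That gene was IFIT1, which binds foreign RNA. It stood at 11.4, 8.01 and 11.0 with DMSO and at 10.8, 7.40 and 10.1 with T0901317, and fell by 0.73 (limma's SE 0.090; adjusted p = 0.0090). It was the only gene of the pathway groups past the threshold, and it did not pass without the replicate block, without the variance trend or with cyclic loess. The median of these genes was -0.57, and -0.34 with the mean of each gene's probe sets in place of the representative. On their representatives all 7 lay below 0 in 3 of 3 pairs, OAS1 with a mean of only -0.05, and replicate 2 was lowest in both groups for 6. The other probe sets of IFIT2 had means from -0.37 to -0.0088, most of them with a pair above 0. Some of those of IFIT3, OAS1 and OAS3 also had a pair above 0. A dimmer probe set of OAS1 had -0.62 ± 0.16 (limma's SE, adjusted p = 0.64), with 9.06, 6.83 and 9.78 in the vehicle arrays. The remaining OAS1 probe sets, dimmer still, had means from -0.20 to 0.16. Per pair the median of the 7 representatives was -0.58, -0.31 and -0.69, against -0.57, -0.42 and -0.50 for the 8 genes.

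Of 36 other type I interferon effectors measured, 0 were lower and 0 higher past the threshold in limma. At an unadjusted p under 0.05, however, 20 were lower and 0 higher, against 2.41% and 1.32% of all named genes. The median of the 36 effectors was -0.21, and 32 lay below 0, against 8288 of all 14132 named genes. On the effectors' representatives, the largest sizes were those of IFIH1, an RNA sensor (-0.47 ± 0.10, limma's SE; adjusted p = 0.32), and EPSTI1 (-0.41 ± 0.11; adjusted p = 0.76). A dimmer probe set of DDX60, another effector, had -0.60 ± 0.15 (limma's SE; adjusted p = 0.60), against 0.02 on its representative. Over the 36 genes the medians per pair were -0.31, -0.07 and -0.30, smallest in the replicate with the lowest levels.

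Upstream genes showed smaller values. STAT2 had -0.10 ± 0.11 (limma's SE), IRF7, a factor that amplifies the response, had -0.06 ± 0.092 and the receptor chain IFNAR2 had -0.12 ± 0.091 (adjusted p = 1.00 for each). A second, dimmer probe set of IRF7 had -0.41 ± 0.11 (adjusted p = 0.69), with 8.23, 7.19 and 8.69 in the vehicle arrays, which is the order seen for ISG15. IRF9 and IFNAR1 were not analysed here. The medians were -0.06 over 9 transcription factors (-0.02 with quantile normalization), with IRF5 (-0.17 ± 0.10) and IRF8 (0.16 ± 0.096) as the largest sizes, and -0.12 over 5 receptors and kinases (-0.07 without replicate 1, -0.04 with the mean of probe sets), with JAK2 (-0.16 ± 0.11) and IFNLR1 (-0.14 ± 0.11). On their representatives, 0 of these 14 genes were lower and 0 higher past the threshold in limma, and 0 at an unadjusted p under 0.05.

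Among 5 interferons measured, 3 lay below the reference for dim signal, and 0 were lower and 0 higher past the threshold in limma. At an unadjusted p under 0.05, 1 was lower and 0 higher, against 2.41% and 1.32% of all named genes. The median of the 5 interferons was -0.05, and -0.38 with dim probe sets left out. IFNB1, interferon beta, stood at 5.65, 4.31 and 5.71 with DMSO and at 4.63, 4.28 and 4.85 with T0901317. Only the DMSO arrays of replicates 1 and 3 and the T0901317 array of replicate 3 were above the reference for dim signal. The T0901317 array of replicate 1 and both arrays of replicate 2 were below it, so the differences of those pairs rest on dim readings. The paired differences were -1.02, -0.03 and -0.86, a mean of -0.64 ± 0.18 (limma's SE) that did not pass (adjusted p = 0.87). The next in size was IFNK at 0.17 ± 0.12 (adjusted p = 1.00), which was dim on every array.

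The remaining groups had medians between -0.10 and -0.07. Sensors of nucleic acid had -0.10 over 16 genes (-0.02 without replicate 1, -0.05 without replicate 3), with IFIH1 and RIGI (-0.42 ± 0.13, limma's SE; adjusted p = 1.00) as the largest sizes. Negative regulators had -0.07 over 9 genes (0.06 without replicate 1, -0.15 without replicate 2), with CISH (-0.19 ± 0.13) and SOCS1 (0.19 ± 0.16). Genes typical of interferon gamma and of antigen presentation had -0.10 over 19 genes, with CXCL10, a chemokine (-0.63 ± 0.15; adjusted p = 0.53), and GBP2 (-0.31 ± 0.11; adjusted p = 1.00). In limma 0 of these genes were lower and 0 higher past the threshold. At an unadjusted p under 0.05, 3, 0 and 4 of them were lower, against 2.41% of all named genes. Replicate 2 was the lowest in both groups for 0 of the 19 genes of the interferon gamma group. CXCL10 stood at 10.6, 11.2 and 10.7 with DMSO, highest in replicate 2.

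**Figure D4:**
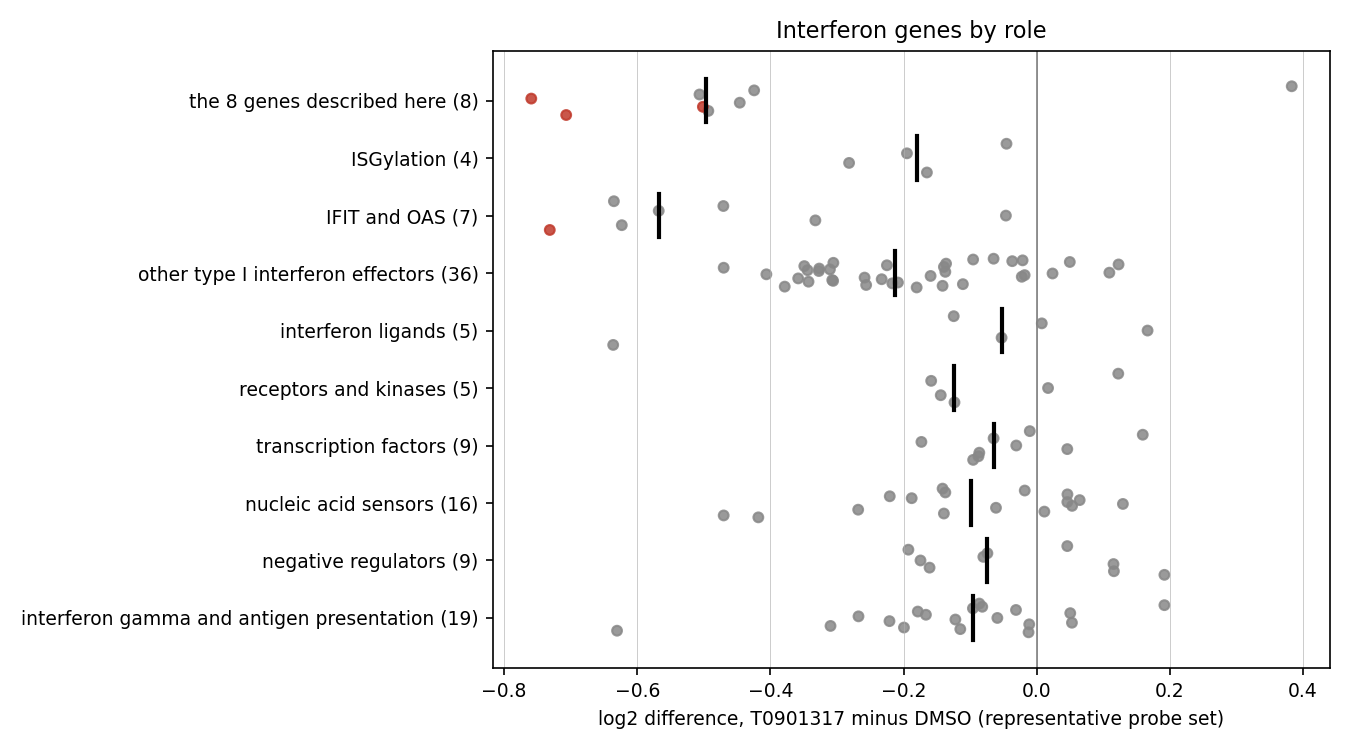
Log2 differences, T0901317 minus DMSO (horizontal axis), of the 8 genes and of 9 other groups of interferon genes by role (vertical axis, number measured in brackets), by representative probe set. Each point is a gene, coloured red if it passed limma's threshold, and a black bar marks the median, which runs from -0.57 for IFIT and OAS genes to -0.05 for interferons (-0.34 and 0.0076 with the mean of probe sets).

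Together the pathway groups held 101 measured genes outside the 8, of which 1 was lower and 0 higher past the threshold in limma. At an unadjusted p under 0.05, 34 were lower and 0 higher, against 2.41% and 1.32% of all named genes. The lower count past the adjusted threshold was 1 without replicate 1, 6 without replicate 2 and 7 without replicate 3. The median of the 101 genes was -0.14, and 80 lay below 0, against 8288 of all 14132 named genes. These groups were listed with earlier results of these data known, and some genes stand in more than 1 group.

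The summed levels of the markers of some other cells were also lowest in replicate 2, by less than ISG15. In bulk RNA, fewer cells of a type and less RNA per cell cannot be told apart. Macrophage markers, of which 13 of 15 were measured, had a summed linear level of 3750 to 8827 with DMSO and 3427 to 8289 with T0901317, lowest in replicate 1 in both groups. Their median difference was 0.0057, with VSIG4 (0.30 ± 0.12, limma's SE) and TYROBP (-0.29 ± 0.075) as the largest sizes. Dendritic cell markers (8 of 11 measured) summed to 2510 to 3407 with DMSO and 2539 to 3265 with T0901317. That sum was lowest in replicate 2 in both groups, but taken singly 1 of the 8 markers was, against 18.2% of all named genes. The median level of the 8 with DMSO was 5.26, 5.37 and 5.64 in replicates 1, 2 and 3. GZMB, a granzyme shared with cytotoxic lymphocytes, stood at 11.4, 10.8 and 11.5 with DMSO. FCER1A and CLEC9A lay below the reference for dim signal on every array, and CLEC4C and LILRA4, which define plasmacytoid dendritic cells, were not analysed here. Their largest sizes were TCF4 (0.27 ± 0.15) and IRF8, named above.

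T and NK markers (6 of 12 measured) summed to 3522 to 5584 with DMSO and 3295 to 5267 with T0901317. These sums were also lowest in replicate 2 in both groups, but taken singly 1 of the 6 markers was. The median level of the 6 with DMSO was 6.94, 7.64 and 8.85 in replicates 1, 2 and 3. CD7 (-0.28 ± 0.13, limma's SE) and GNLY (-0.19 ± 0.080) were largest in size. Pericyte and smooth muscle markers (4 of 8 measured) summed to 4091 to 6679 and 3663 to 5740, lowest in replicate 2 as well. Taken singly, 3 of the 4 were lowest there in both groups. They had a median difference of -0.24, with CSPG4 (-0.36 ± 0.13) and CNN1 (-0.33 ± 0.10). Neutrophil and blood markers (8 of 11) had a median of -0.15, with S100A9 (-0.56 ± 0.14) and PPBP (-0.49 ± 0.16), and sums of 551 to 799 and 433 to 640. Endothelial markers (11 of 12) had a median of 0.12, with CDH5 (0.39 ± 0.10) and CLDN5 (0.24 ± 0.12), and sums of 1290 to 2239 and 1584 to 2384. Fibroblast markers (9 of 10) had -0.06, with DPT (-0.16 ± 0.12) and LUM (-0.16 ± 0.13), and sums of 13460 to 26685 and 14042 to 26165. Luteal steroidogenic markers (8 of 11) had -0.10, with NR5A1 (-0.22 ± 0.14) and INHA (-0.21 ± 0.10), and sums of 4335 to 6043 and 4360 to 6176. No marker passed the threshold in limma. At an unadjusted p under 0.05 the counts were 2 lower and 1 higher for macrophages, 2 lower for blood cells, 1 lower for T and NK cells, 1 higher for endothelium and 2 lower for pericytes. Over all named genes, 2.41% were lower and 1.32% higher at that unadjusted p. The part of cell makeup in the values of the 8 genes was not tested.

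The genes whose 6-array profile was most like the mean centred profile of the 8 were SPRY2 (Pearson r 0.999), OAS2 (0.998), RRP12 (0.997), MMP12 (0.996), ADARB2 (0.995), MYL6 (0.995), KLHL29 (0.995) and RPF1 (0.995). Among the 8 genes themselves, r over the 6 arrays was 0.996 between ISG15 and HERC6, 0.976 between MX1 and MX2, 0.46 between CMPK2 and SAMD9L and -0.82 between SAMD9L and PLSCR1. The 6 points are 3 pairs of cultures, and the low replicate 2 sets most of the profile, so these values describe the arrays and have no test. OAS2 is the only 1 of these genes in the interferon groups. It stood at 9.55, 7.38 and 9.41 with DMSO and had a difference of -0.57, while MYL6, a myosin light chain, ran over a much smaller range, 12.6, 12.3 and 12.6, with -0.06. The r with the mean profile was 0.99 for ISG15 itself, 0.62 for SAMD9L and -0.39 for PLSCR1.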

How the data were processed

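RNA of 6 cultures was measured on arrays with Affymetrix probe set names and biotin label. The deposited values are log2 levels made by the authors with RMA, per the submitters' processing notes, from 1.81 to 14.7. Its version, whether the 6 arrays were processed together, and array dates are not given in the sources used here, so no batch could be tested. The 99 control probe sets were left out, which left 52766, of which 24956 had 1 gene symbol. The number of arrays limits the precision.

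T0901317 minus DMSO was fitted with limma 3.58.1 in R 4.3.3 with the replicate number as a block and a variance trend, and p-values were adjusted by the Benjamini-Hochberg method over all probe sets (two-sided, threshold 0.05). The pairing comes from the series' design text. Arrays of the same number had deviations correlated at 0.66, 0.81 and 0.83. Identical values made up at most 0.33% of any 2 arrays.

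Members and gene lists were chosen with earlier results of these data known. The rule for naming genes took all members, genes past the threshold in each list (up to 6 by size) or the 2 of largest size, the 8 most alike profiles and, whatever their values, STAT2, IRF9, IRF7, IFNAR1, IFNAR2, USP18, UBA7, UBE2L6, HERC5 and TRIM25; a further gene of that rule is not reported here. The list of LXR targets served only as a treatment check. MYLIP stands for it, since 9 of its 16 measured genes were higher. TMPRSS2, FAM3B, STAR, HSD3B2, GZMB, FCER1A, CLEC9A and DDX60 were named outside that rule. Alternatives covered replicates left out, the block, normalization, dim probe sets, the variance trend, RNA integrity and the mean of probe sets. The planned search of promoters and proteins was not run, and no coordinates are given because the array's genome build is not given.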

Additional observations from a re-analysis of the deposited data

How the results depend on the processing

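The means of the 8 genes kept their sign under all 11 alternatives each, among them every normalization. Some of these could not change it. Leaving out the block, the variance trend or dim probe sets returns the same mean for each representative. The mean of probe sets does so for genes with a single probe set. Leaving out 1 replicate could not change the sign for the 7 genes that were lower in 3 of 3 pairs. ISG15 ran from -0.73 to -0.67, CMPK2 from -0.92 to -0.58 and PLSCR1 from 0.15 to 0.69. Of the 13 member probe sets 11 lay below 0 wherever all 13 were fitted. With dim probe sets left out it was 10 of the 12 that remained. Calls depended on the settings. Of member probe sets 3 were lower in limma's fit with the replicate block; there were 0 without the block (1 at an unadjusted p under 0.05), 1 with quantile normalization, 1 with cyclic loess, 0 without the variance trend (9 at an unadjusted p under 0.05), 8 with the 3' minus 5' covariate, and 1 to 9 with 1 replicate left out. ISG15 was called in 9 of 11 alternatives, the exceptions being those without the block and without the variance trend. MX1 was called in 4 of 11 and CMPK2 in 5 of 11. MX1 was not called without replicate 1 or 2, with quantile normalization, cyclic loess or the mean of probe sets, without the block or without the variance trend, and CMPK2 was not called in those settings other than the one without replicate 2. Over all probe sets 13 were lower and 32 higher; the lower count was 0 without the replicate block (41 at an unadjusted p under 0.05), 5 with quantile normalization, 3 with cyclic loess, 1 without the variance trend, 85 with the covariate and 5 to 119 with 1 replicate left out (5 without replicate 1, 36 without replicate 2, 119 without replicate 3). The higher count was 0 without the block (102 at an unadjusted p under 0.05), 10 without the variance trend, 121 with the covariate and 30 to 209 with 1 replicate left out (209 without replicate 3). Over the pathway groups, 1 gene was lower in the main setting; it was 0 without the block, 0 with cyclic loess, 0 without the variance trend (0, 29 and 25 at an unadjusted p under 0.05), 7 with the covariate and 1 to 7 with 1 replicate left out. The covariate leaves 1 fewer residual degree of freedom, and so does leaving out 1 replicate. Dim signal limits the third probe set of SAMD9L and most interferons.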
